A study of Mus musculus with 6 samples.

Results

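The platelet-derived growth factor (PDGF) ligands and receptors were followed as 6 genes, 4 ligands (Pdgfa, Pdgfb, Pdgfc and Pdgfd) and 2 receptors (Pdgfra and Pdgfrb), taken by symbol from the 57132 genes counted. All 6 were matched and all 6 passed the filter on low counts, after which 16263 genes were tested. Libraries came from 3 samples of immortalized wildtype podocytes (WT, Col4a3+/+) and 3 samples of immortalized Alport syndrome podocytes (AS, Col4a3-/-), given in the sample records as derived from adult male mice of 8 weeks and as untreated. Both lines descend from crosses with mice carrying the H-2Kb-tsA58 transgene, a temperature-sensitive viral T antigen that is switched on by interferon gamma, so this transgene is shared by both groups. Cells were grown at 33 °C in DMEM/F12 with 10% fetal bovine serum and 20 U/mL interferon gamma and were then differentiated at 37 °C for 14 days, as the sample records have it. The study's methods name another medium, interferon dose and duration, and state that interferon gamma was absent during differentiation. Each genotype is 1 cell line, so genotype and line cannot be told apart, and the sample records do not say whether these replicates were separate cultures, although the study describes its data in general as coming from independent experiments. The p-values measure the spread between these samples only.

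PDGFs are dimeric growth factors that act on mesenchymal and perivascular cells through a pair of receptor tyrosine kinases. The dimers AA and CC act on the alpha receptor, DD acts mainly on the beta receptor, and BB binds both receptors. A and B chains are cleaved inside the cell by proprotein convertases, whereas C and D chains are secreted with a CUB domain that is removed outside the cell by proteases such as tissue and urokinase plasminogen activator. In the glomerulus, PDGF-B from endothelial cells recruits mesangial cells, which carry the beta receptor, and podocytes in vivo send growth factors to the neighbouring endothelium.

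The total count lay between 45417221 and 54290968 per library. Expression is given as CPM, counts scaled to a common library size after TMM normalization. Col4a3, the gene disrupted in the AS line, averaged 1087 ± 170 CPM in the WT libraries and 68.8 ± 12.2 CPM in the AS libraries (SD, n = 3 each), and no library went against its label. Podocyte markers were partly absent, with Nphs1 (nephrin) under 1 CPM in every library. Wt1, a transcription factor of podocytes, fell from 20.6 ± 5.28 to 2.50 ± 0.928 CPM (SD, n = 3 each, adjusted p = 3.57e-05). Of the 10 podocyte markers, 8 were tested, 6 were lower and 1 was higher in AS podocytes. Of all tested genes, 19.6% were called lower and 20.4% higher at an adjusted p under 0.05. The summed CPM of the podocyte list was 2050 to 2348 in WT and 1659 to 1786 in AS libraries. The defining endothelial markers (Pecam1, Cdh5, Emcn and Tie1) and the defining immune markers (Ptprc, Adgre1 and Cd3e) were under 1 CPM in all libraries. Defining markers of parietal epithelial cells were expressed, with a summed CPM of 380 to 467 in WT and 326 to 349 in AS libraries. Of the other markers on that list, Krt8 and Krt18 were under 1 CPM in all libraries. Cd44 averaged 250 CPM in the WT and 184 CPM in the AS libraries. For tubular cells the sum of the defining markers was 246 to 307 in WT and 196 to 307 in AS libraries, although 4 of the 5 were under 1 CPM in all libraries. Since these are bulk samples, fewer cells of a type and less RNA per cell cannot be told apart.

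The stretches before the transcription starts of Pdgfd, Pdgfa and Pdgfc are shown because these are the ligands that fell most, rose, and fell least, and because RefSeq windows (GRCm38.p6) were at hand for them. Windows matched 4 of the 6 genes, namely Pdgfa, Pdgfc, Pdgfd and Pdgfra. Each window holds the 250 bases upstream of the start, read 5′ to 3′ on the strand of the gene, with matches to any of 5 searched motifs in capitals. Pdgfd lies at chr9:6168236-6168485 on the plus strand, Pdgfa at chr5:138994945-138995194 on the minus strand (the outer of 2 starts listed) and Pdgfc at chr3:81036166-81036415 on the plus strand.
Pdgfd: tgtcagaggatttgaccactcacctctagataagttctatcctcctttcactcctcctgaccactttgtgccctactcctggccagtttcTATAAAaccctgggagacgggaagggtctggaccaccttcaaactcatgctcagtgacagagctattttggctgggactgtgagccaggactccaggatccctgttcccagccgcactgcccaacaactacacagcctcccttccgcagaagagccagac
Pdgfa: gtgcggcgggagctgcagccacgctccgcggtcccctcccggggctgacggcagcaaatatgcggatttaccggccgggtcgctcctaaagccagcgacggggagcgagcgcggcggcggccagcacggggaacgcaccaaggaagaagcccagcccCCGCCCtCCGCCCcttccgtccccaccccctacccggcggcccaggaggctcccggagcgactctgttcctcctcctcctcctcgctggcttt
Pdgfc: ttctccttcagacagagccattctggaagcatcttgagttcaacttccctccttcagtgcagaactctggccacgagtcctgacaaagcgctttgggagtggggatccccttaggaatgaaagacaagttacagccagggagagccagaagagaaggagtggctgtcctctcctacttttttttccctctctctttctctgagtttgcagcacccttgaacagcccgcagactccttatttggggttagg
The motifs were the TATA box (TATAAA), the CCAAT box (CCAAT), the GC box (GGGCGG), an EGR1 and WT1 type site (GCGGGGGCG) and an AP-1 site (TGACTCA), searched on both strands, and none of these words contains another. The Pdgfd window held 1 TATA box match beginning 160 bases before the start, a word present in 12.4% of all 32851 windows of this length. The Pdgfa window held 2 GC box matches, beginning 93 and 86 bases before the start, and 32.7% of all windows held at least 1. The Pdgfc window held no match. CCAAT, the EGR1 and WT1 type site and the AP-1 site matched none of the 3 windows and were found in 33.8%, 2.57% and 4.46% of all windows. Base composition set the Pdgfa window apart from those of Pdgfd and Pdgfc, which were alike. The Pdgfa window was 72.4% G and C with 28 CpG dinucleotides, where 94.0% of all windows held less G and C, against 53.6% and 3 for Pdgfd and 50.8% and 3 for Pdgfc. These are features of the reference sequence, and no binding or methylation was measured.

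Most of the 6 PDGF ligand and receptor genes were lower in AS podocytes. Of the 6 genes, 4 fell (Pdgfb, Pdgfc, Pdgfd and Pdgfrb), 1 rose (Pdgfa) and Pdgfra, which was barely expressed, did not pass the test. At the same threshold, an adjusted p under 0.05, 40.1% of all tested genes were called, 20.4% higher and 19.6% lower. The fold changes ran from 6.72-fold lower for Pdgfd to 1.32-fold higher for Pdgfa. The groups of 3 libraries did not overlap in any of the 6 genes, as in 52.3% of tested genes.

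**Figure D1:**
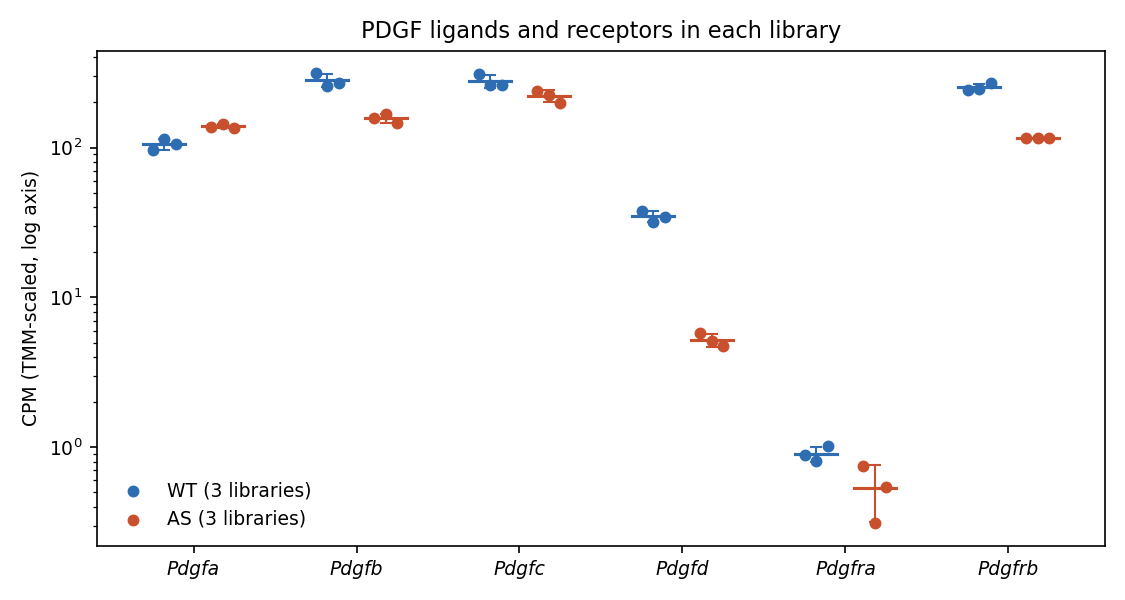
CPM on a log axis for each of the 6 genes, with WT libraries in blue and AS libraries in red. Points are the 3 libraries of a group, horizontal bars the means and vertical bars the SD. Pdgfd shows the widest gap between groups, from a mean of 34.9 to 5.20 CPM, and Pdgfra lies near 1 CPM or below in both.

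Pdgfd (ENSMUSG00000032006.16, chromosome 9), the ligand that acts mainly on the beta receptor, changed most. Its CPM was 37.9, 32.1 and 34.6 in the WT and 5.77, 5.12 and 4.71 in the AS libraries. Every AS library lay far below every WT library, and neither group was spread widely. The means were 34.9 ± 2.94 and 5.20 ± 0.538 CPM (SD, n = 3 each), and the log2 fold change was -2.75 with a standard error of 0.10 (adjusted p = 1.08e-07). It stayed between -2.84 and -2.68 with each library left out. Only 1.68% of the genes tested had a lower log2 fold change, and 6.59% were called lower by more than 2-fold.

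Pdgfb (ENSMUSG00000000489.8, chromosome 15) encodes the chain whose dimer binds both receptors. It was measured at 313, 259 and 272 CPM in the WT and 157, 167 and 147 CPM in the AS libraries. The lowest WT library was well above the highest AS library. Means of 281 ± 28.6 and 157 ± 9.98 CPM (SD, n = 3 each) corresponded to 0.557 times the WT level, or -0.84 on the log2 scale with a standard error of 0.08 (adjusted p = 4.98e-05). WT replicate 1 was the highest library, and without it the log2 fold change was -0.76.

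Pdgfc (ENSMUSG00000028019.10, chromosome 3), a ligand of the alpha receptor, fell less. Its CPM was 308, 261 and 262 in the WT and 238, 225 and 199 in the AS libraries. The groups were close to each other, and their spreads were wide beside the gap. The means were 277 ± 27.0 and 221 ± 20.2 CPM (SD, n = 3 each), and Pdgfc was changed by -0.33 on the log2 scale with a standard error of 0.09 (adjusted p = 0.0151). The call was lost without AS replicate 3, the lowest library, at -0.26 (adjusted p = 0.0668).

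Pdgfa (ENSMUSG00000025856.16, chromosome 5), the other chain whose homodimer is restricted to the alpha receptor, went the opposite way. It was at 96.3, 114 and 105 CPM in the WT and 138, 143 and 135 CPM in the AS libraries. All AS libraries were above all WT libraries, and WT replicate 1 was the lowest. The means of 105 ± 8.78 and 139 ± 4.29 CPM (SD, n = 3 each) differed by 1.32-fold, or 0.40 on the log2 scale with a standard error of 0.07 (adjusted p = 0.00141). The 685 better expressed genes of chromosome 5 had a median of 0.20 on the same scale, AS over WT, and with that median removed Pdgfa was at 0.20. An antisense gene, 6330403L08Rik, shares 813 exon bases with Pdgfa and rose from 10.7 ± 1.35 to 21.0 ± 2.02 CPM (SD, n = 3 each), by 0.97 on the log2 scale (adjusted p = 0.000164). No source says whether reads were counted by strand, so those from the shared bases cannot be assigned to either gene.

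The beta receptor gene Pdgfrb (ENSMUSG00000024620.13, chromosome 18), which marks mesangial cells and pericytes, was the more abundant receptor in both lines. Its CPM was 242, 247 and 269 in the WT and 115, 116 and 116 in the AS libraries. The AS libraries were nearly identical and all lay below the WT libraries. Means of 253 ± 14.3 and 116 ± 0.362 CPM (SD, n = 3 each) made the AS level 2.18-fold lower. The log2 fold change was -1.12 with a standard error of 0.06 (adjusted p = 8.71e-07) and stayed between -1.15 and -1.08 with each library left out. A change of more than 2-fold at this threshold, in either direction, was seen in 11.2% of tested genes.

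Other markers of mesangial cells and pericytes did not share 1 direction with Pdgfrb. The summed CPM of the 12 markers, Pdgfrb not included, was 6294 to 8450 in WT and 6983 to 8112 in AS libraries, most of it Acta2, the smooth muscle actin gene (on average 6701 CPM in the WT and 6759 CPM in the AS libraries). Of the 10 markers tested, 2 were higher and 3 lower in AS podocytes, where 40.1% of all tested genes were called in either direction. Among the 5 defining markers, Itga8, Ren1 and Kcnj8 stayed under 1 CPM in all libraries, whereas Rgs5 rose by 1.61 on the log2 scale (adjusted p = 0.000129) to 9.99 CPM and Abcc9 fell by 3.03 on the log2 scale (adjusted p = 0.000886) from 1.03 CPM. Cspg4, the NG2 proteoglycan of pericytes, fell by 4.54 on the log2 scale (adjusted p = 1.82e-05), from 10.2 to 0.445 CPM. The part of such cells, and of the lower podocyte markers, in the Pdgfrb result was not tested.

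The alpha receptor gene Pdgfra (ENSMUSG00000029231.16, chromosome 5), a marker of fibroblasts and other mesenchymal cells, was expressed at a low level. Of the genes tested, 17.1% had a lower mean CPM. It had 45, 38 and 47 counts in the WT and 34, 16 and 30 counts in the AS libraries, or 0.888, 0.812 and 1.02 CPM against 0.755, 0.311 and 0.545 CPM. The highest AS library came close to the lowest WT library. The means were 0.906 ± 0.105 and 0.537 ± 0.222 CPM (SD, n = 3 each), and the difference of -0.76 on the log2 scale, with a standard error of 0.36, did not pass the threshold (adjusted p = 0.128). The adjusted p was between 0.0614 and 0.308 in the 12 other fits that tested the gene, none past the threshold. Among fibroblast markers, Lum had 0 counts in every library, Dpt and Pi16 stayed under 1 CPM, and Dcn averaged 0.538 CPM in the WT and 2.35 CPM in the AS libraries. Of the 8 fibroblast markers 5 were tested, and 3 were higher and 2 lower, where 40.1% of all tested genes were called in either direction. The summed CPM of the fibroblast markers was 53.2 to 61.4 in WT and 415 to 596 in AS libraries. The rise follows Col1a1, which averaged 24.3 CPM in the WT and 477 CPM in the AS libraries. Col1a2, which encodes the partner chain of the same collagen, fell from 30.6 ± 7.12 to 0.999 ± 0.299 CPM (SD, n = 3 each, log2 fold change -4.92, adjusted p = 5.14e-07). The part of such cells in the receptor values was not tested.

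**Figure D2:**
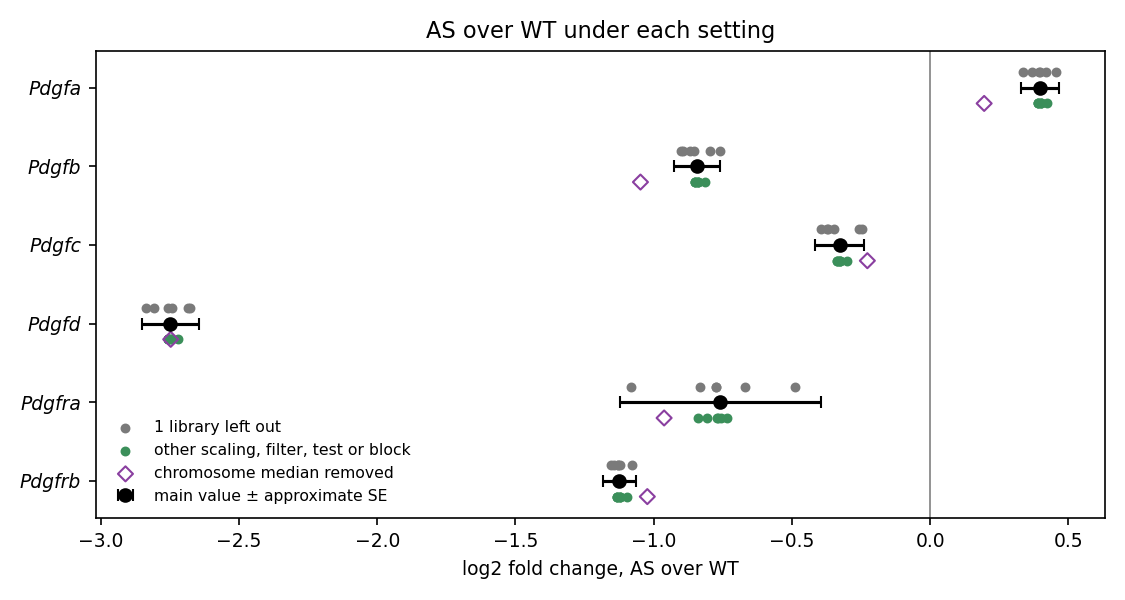
Log2 fold change, AS over WT, of the 6 genes. Black points with bars are the values given in the text with their approximate standard error, grey points leave out 1 library each, green points use another scaling, filter, test or a replicate block, and open diamonds have the median of the chromosome removed. The points for Pdgfd lie between -2.84 and -2.68, and every point for Pdgfa lies above 0, the lowest being 0.20 with the chromosome median removed.

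Transcript levels were set beside each other per length, as CPM per kilobase of annotated exon. In WT podocytes the order was Pdgfb at 67.6 ± 6.88, Pdgfc at 54.4 ± 5.30, Pdgfrb at 46.1 ± 2.62, Pdgfa at 33.7 ± 2.82, Pdgfd at 11.1 ± 0.933 and Pdgfra at 0.0904 ± 0.0104 CPM per kilobase (SD, n = 3 each), and no neighbours in that order overlapped. In AS podocytes Pdgfa led at 44.4 ± 1.37, followed by Pdgfc at 43.4 ± 3.97 and Pdgfb at 37.7 ± 2.40 CPM per kilobase (SD, n = 3 each), where Pdgfa overlapped with Pdgfc and Pdgfc with Pdgfb. Pdgfrb at 21.2 ± 0.0660, Pdgfd at 1.65 ± 0.170 and Pdgfra at 0.0536 ± 0.0221 CPM per kilobase (SD, n = 3 each) followed without overlap. With the longest transcript as the length, Pdgfa and Pdgfrb changed places in WT podocytes and overlapped there, at 51.1 ± 4.26 and 46.6 ± 2.64 CPM per kilobase (SD, n = 3 each).

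The make-up of the ligand pool therefore differed between the lines. The summed level of the 4 ligands was 179, 160 and 162 CPM per kilobase in the WT and 131, 132 and 119 CPM per kilobase in the AS libraries. Pdgfb held 42.1, 38.8 and 40.4% of the sum in the WT and 28.9, 30.4 and 29.6% in the AS libraries. Pdgfa held 17.3, 22.8 and 20.9% and rose to 33.8, 34.8 and 36.3%. Pdgfc kept a similar share, with means of 32.6 ± 1.12 and 34.1 ± 1.58% (SD, n = 3 each), and Pdgfd went from 6.62 ± 0.232 to 1.30 ± 0.0920% (SD, n = 3 each). The chains with dimers that bind the beta receptor, Pdgfb and Pdgfd, together made up 47.1 ± 1.84% of the WT and 30.9 ± 0.635% of the AS ligand sum (SD, n = 3 each), a grouping chosen after the values were seen.

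**Figure D3:**
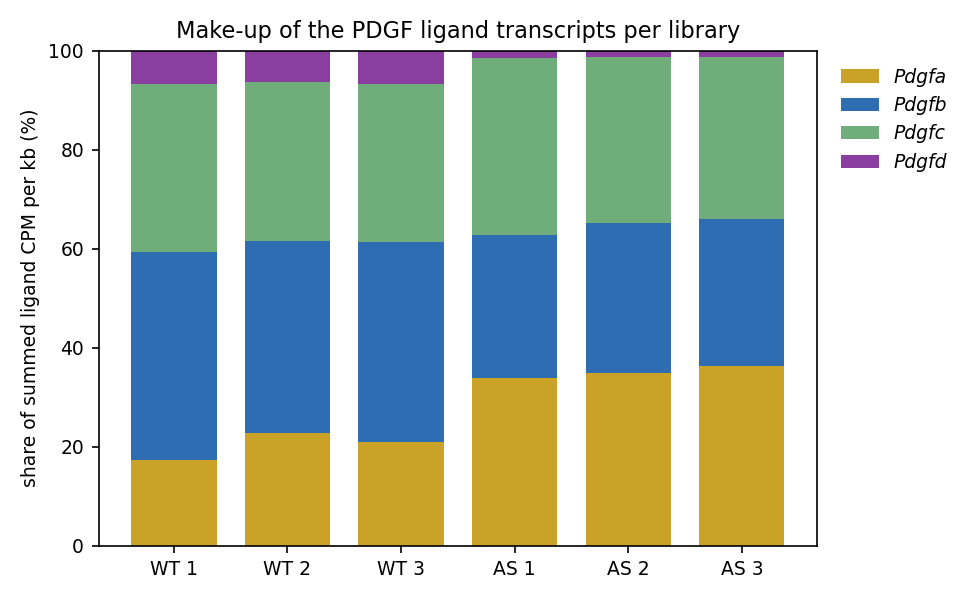
Share of each PDGF ligand in the summed ligand CPM per kilobase, in percent, with 1 stacked bar for each of the 3 WT and 3 AS libraries. The Pdgfb and Pdgfd parts are smaller and the Pdgfa part is larger in all 3 AS libraries, where Pdgfa holds 33.8 to 36.3%.

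Ratios of counts within a library need no scaling between libraries. The log2 ratio of Pdgfd to Pdgfb was -3.05, -3.01 and -2.98 in the WT and -4.77, -5.02 and -4.96 in the AS libraries, so that Pdgfd fell further than Pdgfb by 1.91 on the log2 scale. The log2 ratio of Pdgfb to Pdgfa was 1.70, 1.18 and 1.37 in the WT and 0.19, 0.22 and 0.12 in the AS libraries, a difference of -1.24. Neither ratio overlapped between the groups, and both had p = 0.10 in a two-sided exact permutation test, the smallest value that 3 against 3 allows. These pairs were chosen after the values were seen. For the receptors, the log2 ratio of Pdgfra to Pdgfrb was -8.09, -8.25 and -8.04 in the WT and -7.26, -8.54 and -7.73 in the AS libraries. These groups overlapped, and the difference of 0.28 (two-sided exact permutation test, p = 0.50) changed sign to -0.011 without AS replicate 1.

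Genes with a profile like that of the receptors over the 6 libraries were named by Pearson's r of log2 CPM, as a description across libraries that fall into 2 groups. Closest to Pdgfrb were Icmt (r = 0.9997), Fbln5 (r = 0.9996) and Stx17 (r = 0.9996), all lower in AS podocytes, and 1181 of 12771 genes reached an r over 0.95. Closest to Pdgfra were 1810024B03Rik (r = 0.992), Gapvd1 (r = 0.983) and Ube2j2 (r = 0.978), with 30 genes over 0.95, but the counts of Pdgfra are too sparse for this order to carry weight.

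The wider PDGF pathway was described with 72 genes in 6 lists, of which 71 were tested. Among them 18 were higher and 13 lower in AS podocytes, so that 43.7% were called, against the 40.1% of all tested genes. The median log2 fold change over the 71 genes was -0.07, and that over all tested genes was 0.0061. The lists differed in their counts, and only 5 of the 71 genes were both called and changed by more than 2-fold. Further genes passed 2-fold without being called.

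**Figure D4:**
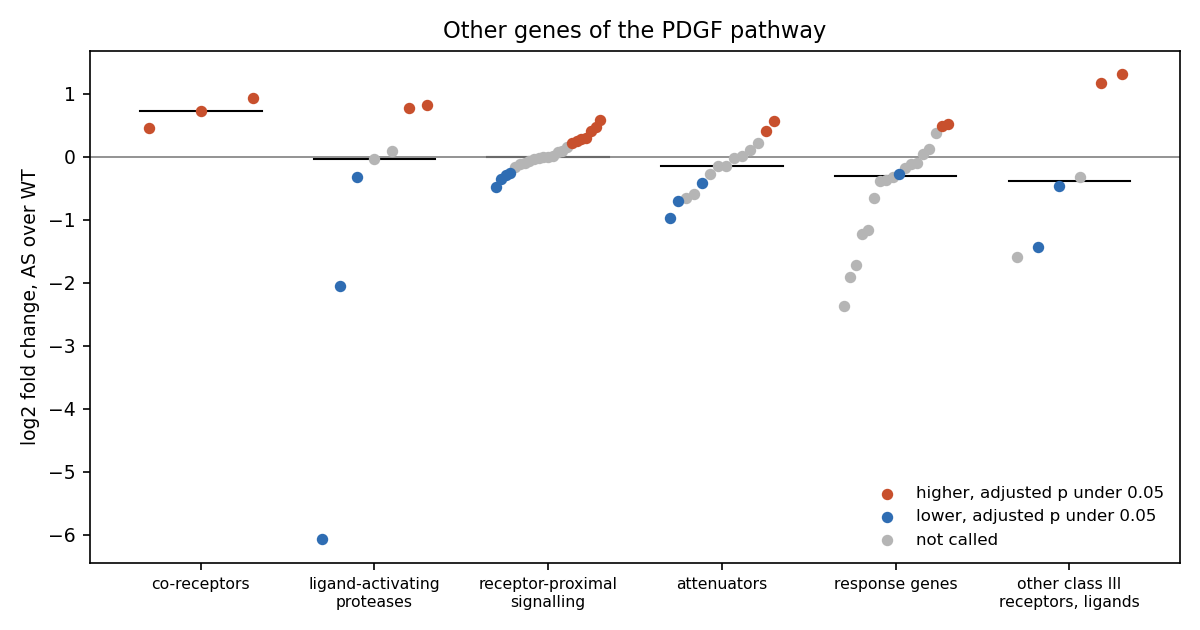
Log2 fold change, AS over WT, of the tested genes in the 6 pathway lists, each point a gene and each black line the median of its list. Red points were called higher and blue points lower at an adjusted p under 0.05. The 3 co-receptors are all red, Pcsk5 is the lowest point at -6.07, and the response genes with the lowest values are grey.

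All 3 co-receptors rose, where 20.4% of all tested genes were called higher. Nrp1, a neuropilin that binds several growth factors, rose from 345 ± 47.3 to 472 ± 43.1 CPM (SD, n = 3 each), by 0.45 on the log2 scale (adjusted p = 0.00663). Nrp2, its relative, rose from 84.5 ± 18.7 to 162 ± 6.58 CPM (SD, n = 3 each), by 0.94 (adjusted p = 0.00062). Lrp1, an endocytic receptor that associates with the beta receptor, rose from 1717 ± 125 to 2826 ± 671 CPM (SD, n = 3 each), by 0.72 (adjusted p = 0.00519). Nrp1 and Lrp1 lie on chromosomes 8 and 10, whose medians were above 0 in this comparison, and with the chromosome median removed they were at 0.13 and 0.39.

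The proteases that process the ligands moved in both directions, with 2 of 7 higher, 3 lower and 2 not called. The share called was 71.4%, against 40.1% of all tested genes. Pcsk5, a proprotein convertase, was at 177, 226 and 240 CPM in the WT and 3.15, 3.03 and 3.34 CPM in the AS libraries, a change of -6.07 on the log2 scale with a standard error of 0.13 (adjusted p = 5.6e-09). No AS library came near the WT range. Plau, the urokinase that activates PDGF-D, was at 45.7, 36.0 and 30.9 CPM in the WT and 9.79, 9.14 and 8.14 CPM in the AS libraries, a change of -2.06 on the log2 scale with a standard error of 0.14 (adjusted p = 5.71e-06). Its AS libraries were thus all below its WT libraries, as were those of its substrate Pdgfd. Furin, the ubiquitous convertase, fell by 0.32 on the log2 scale (adjusted p = 0.000995). Pcsk6 rose by 0.82 (adjusted p = 0.000697) and St14, the membrane protease matriptase, which also cleaves PDGF-D, rose by 0.77 (adjusted p = 0.00145), reaching 18.1 ± 2.31 CPM (SD, n = 3). Plat, which activates PDGF-C, was at 228 ± 52.1 and 243 ± 23.0 CPM (SD, n = 3 each) and was not called (log2 fold change 0.09, adjusted p = 0.649), although without WT replicate 1 it was higher at 0.29 (adjusted p = 0.0124). Pcsk7 was not called at -0.04 (adjusted p = 0.666).

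Of 23 signalling proteins that act next to the receptors, 7 were higher, 4 lower and 12 not called. At 47.8% the share called was near the 40.1% of all tested genes. The median log2 fold change was -0.01, and none was beyond 2-fold. The 4 most abundant were Ptpn11, Stat3, Shc1 and Pik3r1. Stat3, a transcription factor activated by the receptors, fell from 236 ± 44.2 to 169 ± 13.3 CPM (SD, n = 3 each, log2 fold change -0.49, adjusted p = 0.00952). Shc1, an adaptor, fell by 0.29 on the log2 scale (adjusted p = 0.00338) and Pik3r1, a regulatory subunit of PI3 kinase, fell by 0.36 (adjusted p = 0.0212). The Pik3r1 call was lost without AS replicate 2 or AS replicate 3 (adjusted p = 0.0739 and 0.0786). Ptpn11, the phosphatase SHP2, was not called at -0.07 (adjusted p = 0.393).

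Of 14 attenuators, 2 were higher, 3 lower and 9 not called, with a median log2 fold change of -0.14. The share called, 35.7%, was near the 40.1% of all tested genes. Among the most abundant, Ptprj, a receptor phosphatase that acts on the beta receptor, fell from 167 ± 22.6 to 103 ± 10.7 CPM (SD, n = 3 each, log2 fold change -0.70, adjusted p = 0.000659). Spry1 (log2 fold change -0.28, adjusted p = 0.188) and Cbl, a ubiquitin ligase that directs receptors to degradation (0.21, adjusted p = 0.155), were not called. Without WT replicate 1, Cbl was called at 0.31 (adjusted p = 0.0238), as it was without AS replicate 2 at 0.30 (adjusted p = 0.0435). Without the filter on low counts both Spry1 (-0.28, adjusted p = 0.00756) and Cbl (0.21, adjusted p = 0.0357) were called.

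Genes that respond to growth factors were for the most part highest in WT replicate 1. Of 18 such genes, 14 had their highest level in that library, 3 in AS replicate 1 and 1 in AS replicate 2. Egr1, an immediate early transcription factor, was at 754, 228 and 159 CPM in the WT and 366, 301 and 210 CPM in the AS libraries. Nr4a1, a nuclear receptor of the same kind of response, was at 233, 9.40 and 3.62 CPM in the WT and 31.7, 11.5 and 5.09 CPM in the AS libraries. For Egr1 and Nr4a1, replicate 1 was the highest library within each line, whereas for Fos the highest AS library was AS replicate 2. Nr4a1 and Fos are named here, as are the next 3 genes, after their values were seen. The share called among the 18 genes was 16.7%, against 40.1% of all tested genes. Only 3 of the 18 genes were called, with Myc (0.51, adjusted p = 0.00491) and Ccl2 (0.48, adjusted p = 0.00495) higher and Srf (-0.28, adjusted p = 0.0454) lower. The median log2 fold change of the 18 was -0.30. Without WT replicate 1, 5 were higher and 0 lower in edgeR's test, the median was 0.46, and Egr1 went from -0.38 (adjusted p = 0.57) to 0.59 (adjusted p = 0.0341). Leaving out WT replicate 3 gave 2 higher and 4 lower, and leaving out AS replicate 1 gave 2 higher and 3 lower. Over all genes, 6776 were called without WT replicate 1, 5476 without WT replicate 3 and 5597 without AS replicate 1, instead of 6517. The other abundant members of the list were not called, with Dusp1 at 0.05 (adjusted p = 0.872), Junb at 0.13 (adjusted p = 0.775) and Jun at -0.11 (adjusted p = 0.417). Without WT replicate 1, Pdgfa was at 0.34, Pdgfb at -0.76, Pdgfc at -0.25, Pdgfd at -2.68 and Pdgfrb at -1.15 on the log2 scale, and each of these 5 stayed past the threshold.

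**Figure D5:**
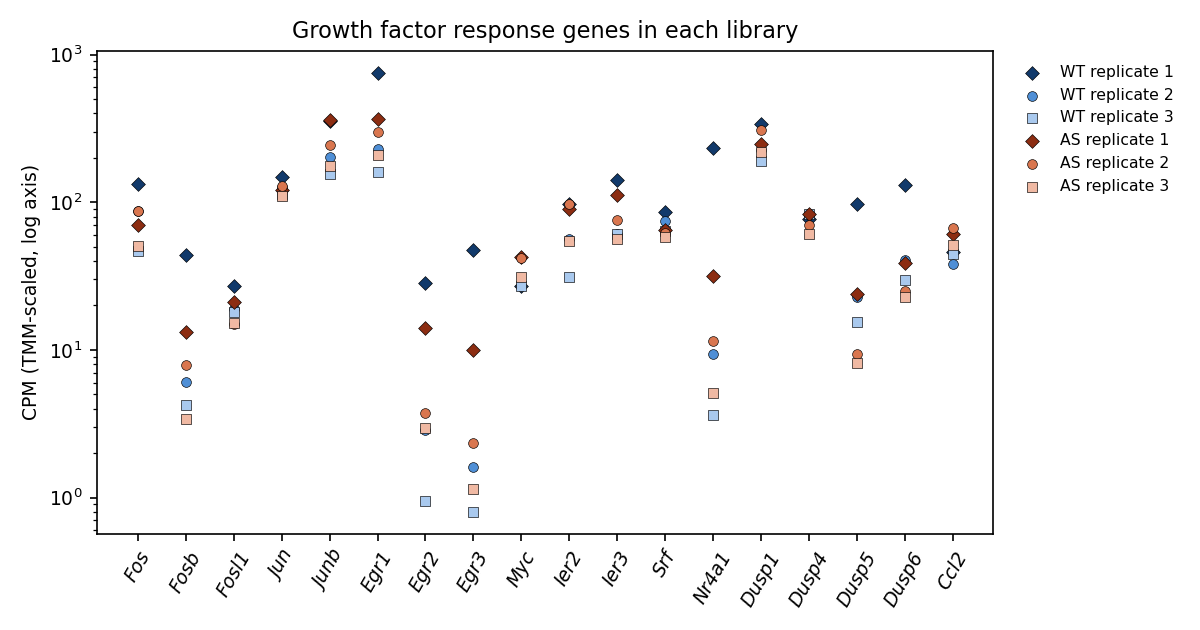
CPM on a log axis of 18 growth factor response genes in each of the 6 libraries, with WT libraries in blue and AS libraries in red. The dark blue diamonds of WT replicate 1 are the highest point in 14 of the 18 genes.

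The class III receptor tyrosine kinases related to the PDGF receptors, with their ligands, were mostly scarce. Of 7 genes 6 were tested, with 2 higher and 2 lower, and Flt3 was not tested because of its low counts. Of those tested, 66.7% were called, against 40.1% of all tested genes. Csf1, the abundant ligand of the CSF1 receptor, fell from 1864 ± 243 to 1354 ± 91.3 CPM (SD, n = 3 each, log2 fold change -0.46, adjusted p = 0.00527). Its receptor Csf1r, known from macrophages, fell from 10.3 ± 1.42 to 3.82 ± 0.522 CPM (SD, n = 3 each, log2 fold change -1.43, adjusted p = 9.4e-05). Kitl, the ligand of Kit, rose from 5.92 ± 1.02 to 13.4 ± 1.35 CPM (SD, n = 3 each, log2 fold change 1.17, adjusted p = 0.000207). Il34, another ligand of the CSF1 receptor, was not called at -0.32 (adjusted p = 0.197).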

How the data were processed

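Expression was measured by RNA-seq in 3 samples of each podocyte line. The files deposited by the authors hold raw gene counts, not normalized, from mRNA libraries made with 15 cycles of PCR. The submitters' processing notes name FastQC, Trim Galore, STAR, edgeR and build mm39, with no versions, while for the counting tool and annotation release the sources used here name nothing. Symbols, chromosomes and exon lengths were taken from GENCODE M21 (GRCm38) by identifier without version, which matched 51880 of 57132 identifiers. No gene coordinates are given, since the builds differ. Promoter windows are RefSeq's, with their own build.

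Genes were kept with filterByExpr (minimum count 10, minimum total count 15) in edgeR 4.0.16 under R 4.3.3 and scaled by TMM. AS was compared with WT over all 16263 genes kept using the quasi-likelihood test of edgeR, two-sided, with adjusted p-values by Benjamini and Hochberg and a threshold of 0.05. Standard errors were approximated from the log2 fold change and the F statistic of the test. The study names limma-voom, run as an alternative with limma 3.58.1, as was DESeq2 1.42.0. A count of 3 in a library corresponds to 0.0545 to 0.0666 CPM, which reflects counting error alone because PCR copies of a molecule were not marked. The edgeR, limma-voom and DESeq2 tests without a block were first checked on simulated counts. In these 200 genes were changed, far fewer than were called in the data. The exact permutation test and the replicate block were not checked in this way.

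Named genes are the 6 PDGF genes, Col4a3, all co-receptors and proteases, the 4 members of each other list with the highest mean CPM, defining cell type markers, and for each receptor the 3 genes with the highest r over the 6 libraries among tested genes with a mean CPM of at least 1. Genes named outside this rule, among them antisense partners and further markers, were chosen after their values were seen, and 2 genes that the rule names are not reported here. The 6 genes and the lists were chosen with earlier results of these data known. Alternatives were another normalization, other filters and tests, a replicate block, each library left out and chromosome medians removed (genes with a mean log2 CPM over 2).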

Additional observations from a re-analysis of the deposited data

How the results depend on the processing

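Pdgfa, Pdgfb, Pdgfd and Pdgfrb kept direction and call in all 13 refits, Pdgfra was never called in the 12 refits that tested it (a mean CPM of at least 1 left it out), and Pdgfc lost its call only without AS replicate 3. With each library left out, the log2 fold change ran from 0.34 to 0.46 for Pdgfa, -0.90 to -0.76 for Pdgfb, -0.39 to -0.25 for Pdgfc, -2.84 to -2.68 for Pdgfd, -1.08 to -0.49 for Pdgfra and -1.15 to -1.08 for Pdgfrb. The log2 ratio of Pdgfra to Pdgfrb, AS minus WT, ran from -0.011 to 0.63. Removing chromosome medians moved Pdgfa to 0.20, Pdgfb to -1.05 and Pdgfrb to -1.02. Without division by length the ligand shares in WT and AS podocytes were 15.2 and 26.6% for Pdgfa, 39.6 and 42.3% for Pdgfc and 4.99 and 0.996% for Pdgfd.

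In the refits, 26 other pathway genes lost the call in 2 values, gained it in the same direction in 7 and changed direction in 8. Among those 8, Egr1 without WT replicate 1 was also called (edgeR, adjusted p = 0.0341). These 8 came with 1 library left out, where values ran from -0.025 to 0.29 for Plat, -0.75 to 0.59 for Egr1, -0.12 to 0.32 for Dusp1, -0.19 to 0.54 for Junb and -0.20 to 0.00090 for Jun. With chromosome medians removed, 10 of the 26 values moved by more than the replicate spread, and Plat, Junb and Jun changed sign, to -0.23, -0.20 and 0.056. The cause was not tested. Without a filter on low counts, 3 response genes were higher and 8 lower instead of 2 and 1, and 3 attenuators were higher and 6 lower instead of 2 and 3. Over all genes, 6949 were then called instead of 6517, with more genes tested.

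The replicate numbers were not taken to pair the samples. The correlation of deviations from their group mean was 0.147, 0.0939 and 0.0526 for the 3 same-numbered pairs. For the other pairs it ran from -0.13 (WT replicate 1 with AS replicate 2) to 0.0571 (WT replicate 3 with AS replicate 2). Only the last of these was positive, and it was the best match of WT replicate 3. Whether samples with the same set number were handled together was not tested. With the replicate block, 7066 genes were called instead of 6517 and 41 pathway genes instead of 31, with 3 response genes higher and 4 lower and 3 attenuators higher and 6 lower. Spry1 (-0.26, adjusted p = 0.024) and Cbl (0.21, adjusted p = 0.0217) were then called, and no PDGF gene changed its call under the block. Pdgfra rests on 16 to 47 counts per library.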

Other observations

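Pdgfrl, a gene named for its likeness to the PDGF receptors and without their kinase domain, is outside the 6 genes and was looked at after its value was seen. It averaged 14.3 ± 1.31 CPM in the WT and 50.9 ± 6.33 CPM in the AS libraries (SD, n = 3 each), and the groups did not overlap. The change of 1.83 on the log2 scale, with a standard error of 0.11 (edgeR, adjusted p = 1.84e-06), was in the direction opposite to that of Pdgfrb.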
